A study of Mus musculus with 22 samples.

Results

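The 8 genes described here, Cux2, Rorb, Lamp5, Fezf2, Bcl11b, Tbr1, Foxp2 and Rprm, mark layers and projection neuron classes of the neocortex. They were chosen by name as the rows of both deposited count tables that carry these symbols, and all 8 were found among 24421 gene rows. The choice used no measured value, but it was made with earlier results of these data known. All 8 passed the expression filter in both sexes, and the lowest count of any of them in any library was 130, for Fezf2.

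The neocortex is built in layers. Upper layers hold neurons that project mainly within the cortex and receive input from the thalamus, and deep layers hold neurons that project to the brainstem, spinal cord and thalamus. Transcription factors such as Fezf2, Bcl11b and Tbr1 set these projection classes apart during development and stay expressed in the adult brain, so their RNA in a piece of brain tissue also depends on how much cortex the piece contains.

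Total RNA of the right brain hemisphere was sequenced from 22 mice of the inbred strain C57BL/6JOlaHsd, and the labels name no transgene and no agent given to any group. Each sex gave its dominant and its submissive mice in equal number, 7 of each rank for males and 4 of each for females. Rank came from the tube test at 10 to 12 weeks, where the mouse that backs out of a narrow tube loses. The mice lived in groups of 4, and from each group the top and the bottom mouse were killed together, 3 to 4 days after ranking. Replicate numbers stand for cages. Male cages are numbered 1 to 7 here and female cages 1 to 4, of which 3 and 4 carry the group labels Gr1 and Gr2 in place of a cage number. By the study's methods, females of intermediate rank were put together in fresh groups and ranked again a week later, and whether cages 3 and 4 are such groups is not given in the sources used here. Males and females came as separate tables whose library names have different prefixes, so sex and table cannot be told apart. A whole hemisphere also holds tissue other than cortex, and in such bulk samples fewer cells of a type and less RNA per cell cannot be told apart.

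Libraries held 12403943 to 16488762 counted reads, and the 8 genes together took 0.0365% to 0.0470% of them. Levels are given in CPM, read counts relative to library size on the usual CPM scale, with TMM scaling factors that lay between 0.986 and 1.01. The presence of pallial excitatory neurons was checked on 11 of their genes, whose summed level was 1945 to 2594 CPM in all 22 libraries. This sum cannot tell cortex from other pallial tissue. A single library stood apart in cell markers. Dominant male 1 had 64.6 summed CPM of 10 cerebellar granule cell genes, while the 13 other males lay between 355 and 817 and the 8 females between 519 and 816. Where leaving out this library changes a call or the sign of a difference of the 8 genes, both values are given.

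Per kilobase of exon, Lamp5 was the most abundant of the 8 genes and Fezf2 the least. Lamp5 encodes a membrane protein of the lysosome family that marks upper layer neurons and a class of interneurons, and had 47.1 ± 4.35 CPM per kb (SD, n = 22). Rprm, a cell cycle arrest gene found in deep layer neurons, followed with 16.4 ± 2.59 CPM per kb (SD, n = 22). Lamp5 exceeded Rprm, and Rprm exceeded Bcl11b, in 22 of 22 libraries. Below them the order was closer. Bcl11b had 10.1 ± 1.23, Rorb 9.27 ± 0.880, Cux2 7.41 ± 1.42, Tbr1 7.24 ± 1.16 and Foxp2 6.16 ± 0.643 CPM per kb (SD, n = 22 each). Fezf2 ended the order at 5.02 ± 0.455 CPM per kb (SD, n = 22). The ranges of these lower neighbours overlapped over the libraries, and Cux2 exceeded Tbr1 in 13 of 22. The place of Cux2 depended on the table, since it came after Tbr1 in males (6.48 ± 0.761 CPM per kb, SD, n = 14) and after Bcl11b in females (9.02 ± 0.560 CPM per kb, SD, n = 8).

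Among the upper layer genes, Cux2 encodes a homeodomain factor of layer 2 to 4 neurons and lies on chromosome 5 (mm10, 121860216 to 122047825, minus strand). Its level was 25.2 to 39.7 CPM in dominant males (median 32.6) and 28.1 to 39.1 CPM in submissive males (median 33.5). The 4 dominant females had 46.0, 45.1, 46.7 and 52.2 CPM, and the 4 submissive females had 45.8, 41.8, 45.7 and 45.7 CPM. All males lay below all females, and the ranks overlapped in both sexes.

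Rorb encodes a nuclear receptor that marks layer 4, the main target of thalamic input, and lies on chromosome 19 (mm10, 18930609 to 19111196, minus strand). It had 74.1 to 105 CPM in dominant males (median 89.8) and 84.5 to 96.2 CPM in submissive males (median 89.8). The dominant females had 86.5, 86.9, 84.9 and 91.1 CPM, and the submissive females 76.0, 74.9, 77.0 and 79.3 CPM. In females the ranks did not overlap: the lowest dominant value was 84.9 CPM and the highest submissive value 79.3 CPM. In males the ranks overlapped fully.

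Lamp5 lies on chromosome 2 (mm10, 136057927 to 136069917, plus strand). Its level ran from 81.8 to 109 CPM in dominant males (median 86.9) and from 84.2 to 103 CPM in submissive males (median 92.2). Dominant females had 79.9, 102, 92.3 and 108 CPM, and submissive females had 85.3, 90.5, 88.4 and 93.5 CPM. The ranks overlapped in both sexes, and the dominant females held both the lowest and the highest female value.

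Among the deep layer genes, Fezf2 encodes a zinc finger factor that directs neurons to subcerebral targets and lies on chromosome 14 (mm10, 12341892 to 12345865, minus strand). It had 10.8 to 13.1 CPM in dominant males (median 11.8) and 9.29 to 12.3 CPM in submissive males (median 11.1). The females had 11.6, 10.7, 13.7 and 11.9 CPM when dominant and 11.98, 12.4, 10.8 and 11.1 CPM when submissive. Its groups overlapped throughout.

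Bcl11b encodes Ctip2, a zinc finger factor of subcerebral projection neurons that is also abundant in the striatum, and lies on chromosome 12 (mm10, 107910403 to 108003414, minus strand). It had 62.7 to 104 CPM in dominant males (median 83.9) and 73.1 to 96.7 CPM in submissive males (median 81.0). The dominant females had 89.1, 68.0, 75.2 and 81.2 CPM, and the submissive females 78.5, 77.3, 63.4 and 71.7 CPM. Dominant males held both the highest value, in replicate 1, and the lowest, in replicate 6.

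Tbr1 encodes a T-box factor of layer 6 corticothalamic neurons and lies on chromosome 2 (mm10, 61804453 to 61814113, plus strand). Relative to its mean, it had the widest spread of the 8 genes in males (coefficient of variation 18.1%), with 19.5 to 37.7 CPM in dominant (median 28.1) and 22.2 to 35.3 CPM in submissive males (median 26.7). The dominant females had 31.7, 28.8, 30.9 and 38.2 CPM, and the submissive females 28.6, 28.8, 27.4 and 27.6 CPM. The female ranks did not overlap, but the lowest dominant value, 28.82 CPM, and the highest submissive value, 28.78 CPM, were almost equal.

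Foxp2, a forkhead factor of deep layer neurons that is also expressed in the striatum, thalamus and cerebellum, lies on chromosome 6 (mm10, 14901349 to 15441977, plus strand). It had 34.7 to 50.2 CPM in dominant males (median 44.0) and 38.9 to 51.4 CPM in submissive males (median 44.0). Dominant females had 45.9, 41.4, 41.8 and 45.1 CPM, and submissive females had 40.6, 44.7, 36.2 and 35.8 CPM. The ranks overlapped in both sexes.

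Rprm lies on chromosome 2 (mm10, 54084093 to 54085552, minus strand) and has 1 exon. It had 21.97 to 31.6 CPM in dominant males (median 26.9) and 19.3 to 28.9 CPM in submissive males (median 27.9). The females had 20.8, 21.0, 18.7 and 22.7 CPM when dominant and 21.7, 22.4, 18.3 and 21.5 CPM when submissive. The ranks overlapped, and the submissive males fell into 3 libraries at or below 21.9 CPM, from cages 1 to 3, and 4 at or above 27.9 CPM. None of the 8 genes shares exon bases with another gene of the annotation used for the check.

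**Figure D1:**
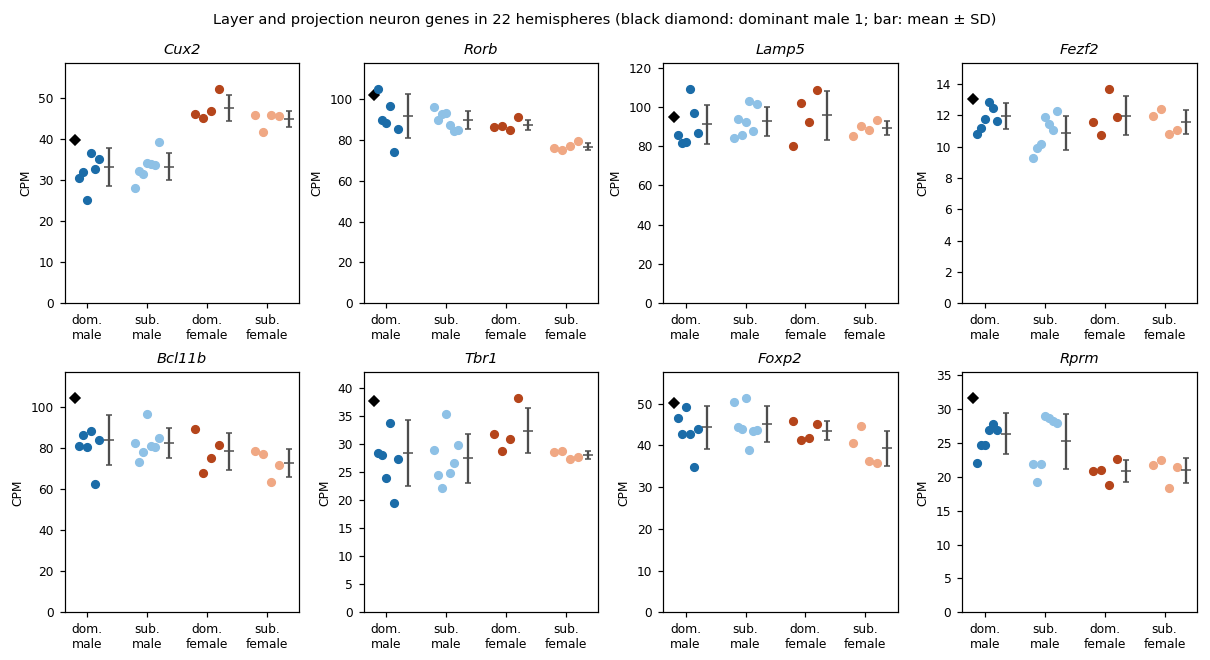
CPM of the 8 genes (y axis, from 0) in each of the 22 hemispheres by group, with the mean ± SD of each group as a bar and dominant male 1 as a black diamond. All 14 males lay below all 8 females for Cux2, and dominant male 1 was the highest male for Cux2, Fezf2, Bcl11b, Tbr1 and Rprm.

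Whether the cortical genes gain share in a hemisphere with little cerebellar RNA was examined in dominant male 1. Of the 8 genes, 5 were higher there than in each of the 13 other males, where 10.9% of the 14737 genes tested in males were. Against the median of the 13 others, all 8 were higher, with a median log2 difference of 0.21, a 1.16-fold level, while the median over all genes tested was 0.0014. This is the description of 1 library, and it has no replicate check.

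Tbr1 and Bcl11b, both transcription factors of deep layer neurons, stood furthest above the other males, while Fezf2 and Foxp2, deep layer factors as well, did not differ as much as Cux2. Tbr1 had 37.7 CPM in dominant male 1 against a median of 27.4 CPM in the other males, a log2 difference of 0.46 (SD of the 13 others 0.23). Bcl11b had 104 CPM against a median of 81.0 CPM in the other males, a log2 difference of 0.36 (SD of the 13 others 0.15). Both genes had the largest differences among the 8, and both were highest in this male under all 6 scalings and comparison sets tried.

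Cux2 came next, with 39.7 CPM against a highest other male of 39.1 CPM and a log2 difference of 0.28 from the median. Rprm (0.23) and Fezf2 (0.19) were also highest in this male. The 3 other genes were not. Rorb took the second place (log2 difference 0.19), Foxp2 the third (0.19) and Lamp5 the fifth (0.11). Thus upper and deep layer genes were both above the median of the males, and the smallest difference was that of Lamp5.

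Related forebrain genes were counted in the same way. Over all genes tested in males, 10.9% were higher than in every other male and 11.2% were lower. Of 12 further upper layer genes 4 were higher than in all other males and 1 was lower, with a median log2 difference of 0.20, and of 16 further deep layer genes 5 were higher and 1 lower, with a median of 0.14. Of 11 pallial excitatory neuron genes 5 were higher and 1 lower (median 0.15), and Camk2a, the kinase of excitatory synapses, had 885 CPM against at most 781 CPM in the other males. Of 10 striatal projection neuron genes 4 were higher and 0 lower (median 0.10), of 7 hippocampal genes 1 and 0 (median 0.08), and of 10 interneuron genes 3 and 2 (median 0.16).

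Lists from other regions and cell classes had smaller or negative medians. Of 7 thalamic genes 0 were higher and 1 lower (median -0.03), of 8 pan-neuronal genes 2 were higher and 0 lower (median 0.02), and of 15 non-neuronal genes 3 were higher and 3 lower (median -0.07). All 10 cerebellar granule cell genes were lower than in every other male, with a median log2 difference of -2.42, and so were the 11 tested Purkinje cell genes, with a median of -2.50. Gabra6, a receptor subunit of granule cells, had 7 reads (0.497 CPM) in dominant male 1 and 71.5 to 184 CPM in the other males, and 2 of 12 Purkinje cell genes had a count of 0, which allows up to 0.213 CPM in this library. The part of the missing cerebellar RNA in the levels of the 8 genes was not tested.

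The counts depended on the scaling, for the 8 genes and for all genes. With total counts (10% of all genes), with DESeq2 size factors (10.3%) and relative to the pan-neuronal genes (7.42%), 5 of 8 again exceeded all other males. Relative to the mean of the pallial excitatory neuron genes 2 of 8, Tbr1 and Bcl11b, and 1.58% of all genes did. The median difference of the 8 was then 0.11, that of all genes was -0.13, and Lamp5 lay below the median of the others (-0.05). Against the 6 other dominant males alone, 6 of 8 and 17.4% of all genes were highest.

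Each other male was compared in turn with its 13 fellows. While dominant male 1 was highest for 5 of the 8 genes, no other male was highest for more than 1 of the 8 genes. Dominant male 6 was lowest for 4 of the 8 genes and for 12.5% of all genes, the highest such share of any male, with a median log2 difference of -0.16. Dominant male 5 had the second lowest granule cell sum, 355 CPM, and a median difference of 0.14. Submissive male 4 was above the median of the others for all 8 genes (median difference 0.09).

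**Figure D2:**
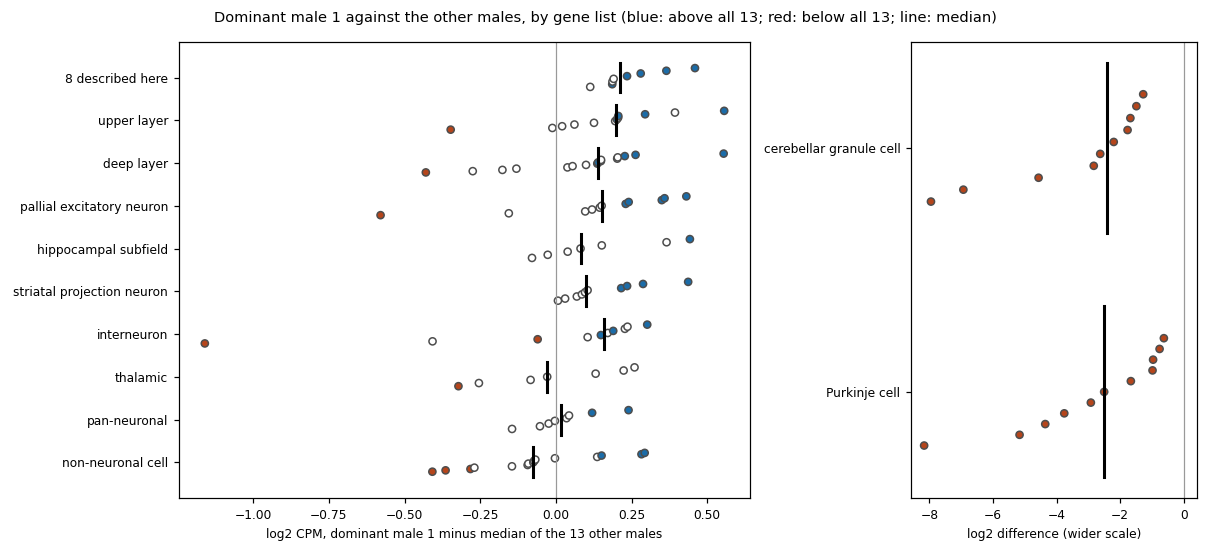
Log2 CPM of dominant male 1 minus the median of the 13 other males (x axis) for each gene of 12 lists (rows), with list medians as black lines; blue points lay above and red points below all 13 others. The 8 genes described here have a median of 0.21, and the cerebellar lists in the right panel, which has a wider scale, have medians of -2.42 and -2.50.

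The relation was then examined over all males, with a score of cerebellar content, the mean log2 CPM of the granule cell genes Gabra6, Cbln3, Fat2, Cdh15 and Barhl1. Of 14737 genes, 274 (1.86%) had a slope on this score that passed edgeR's quasi-likelihood test (Benjamini-Hochberg adjusted), and 0 of the 8 genes did, although 4 of them, and 2008 genes in all, had an unadjusted p under 0.05. All 8 slopes were negative, with a median of -0.06 log2 units per unit of score, beside a median of 0.0013 over all genes. The steepest belonged to Tbr1, at -0.13 (standard error 0.0411, adjusted p = 0.119 in edgeR's test), and Bcl11b, at -0.10 (standard error 0.0273, adjusted p = 0.0887 in the same edgeR test).

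The score of dominant male 1 was -4.11 relative to the male mean. Without this library 41 of 14787 genes (0.277%) were called and 0 of the 8 genes, 3 of which, and 1854 genes in all, had an unadjusted p under 0.05. The 8 slopes were again all negative and steeper, with a median of -0.22 over a much narrower range of scores. Tbr1 then had a slope of -0.44 (adjusted p = 0.241 in edgeR's quasi-likelihood test) and Foxp2 one of -0.05 (adjusted p = 0.887). In the 6 males of cages 5 to 7 alone, a subset chosen after seeing the data, 3 of the 8 genes fell with the score, Tbr1 (-0.61), Bcl11b (-0.38) and Rorb (-0.31), beside 1.67% of all genes called in either direction, and the slope of Rprm was 0.04.

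In females 78 of 14865 genes (0.525%) were called on the score and 0 of the 8 genes, with 4 of them and 1302 genes in all at an unadjusted p under 0.05. The 8 slopes were negative, with a median of -0.27, and Tbr1 had the steepest, -0.40 (standard error 0.130, adjusted p = 0.258 in edgeR's test). Dominant female 4, which had the lowest female score and the highest Cux2, Rorb, Lamp5, Tbr1 and Rprm, carried part of this. Without her, the slopes of Cux2 (0.17), Rorb (0.06) and Lamp5 (0.06) were positive, and those of Bcl11b (-0.47), Foxp2 (-0.45), Fezf2 (-0.38), Rprm (-0.31) and Tbr1 (-0.16) were negative.

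In the lists, the genes whose slopes passed the test were mostly cerebellar. The 5 genes that form the score are left out here, since the score fixes their slopes. In males the 5 other granule cell genes and 11 of 11 Purkinje cell genes rose with it. Of the 12 further upper layer genes 1, Unc5d, fell with the score (-0.08), as did 2 of 11 pallial excitatory neuron genes, Camk2a (-0.10) and Slc30a3 (-0.10), and 0 of 16 deep layer, 0 of 7 hippocampal, 0 of 10 striatal, 0 of 7 thalamic and 0 of 8 pan-neuronal genes passed. Of the interneuron genes Pvalb, which Purkinje cells also express, rose (0.26), and so did Aqp4, the water channel of astrocytes (0.09). Without dominant male 1, 4 of these 5 granule cell genes and 4 of 11 Purkinje cell genes rose with the score, and Unc5d, Camk2a, Slc30a3, Pvalb, Aqp4 and the other genes of the lists did not pass. In females the same 5 granule cell genes, 7 Purkinje cell genes, Pvalb and Slc1a3 rose and none of the cortical list genes passed.

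The comparison of social rank, the question of the study, gave no call among the 8 genes in males. Of 14737 genes 0 (0%) passed edgeR's quasi-likelihood test (Benjamini-Hochberg adjusted), 194 had an unadjusted p under 0.05, and 0 of these were among the 8 genes. DESeq2 also called 0 genes, with 179 at an unadjusted p under 0.05. The log2 differences, dominant minus submissive, ran from -0.03 for Foxp2 to 0.14 for Fezf2, with a median of 0.03 beside -0.0015 over all genes tested. This median had no stable sign. It was -0.03 without dominant male 1, with 3 in place of 5 of the 8 genes positive, -0.04 with the cerebellar score as a covariate, and 0.08 in cages 1 to 4 alone and -0.02 in cages 5 to 7 alone.

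Fezf2 averaged 11.98 ± 0.838 CPM in dominant males against 10.9 ± 1.10 CPM in submissive males (SD, n = 7 each). Its log2 difference of 0.14 had a standard error of 0.0705 and an adjusted p of 1.00 in edgeR's test, and the 95% interval ran from -0.01 to 0.29. For the 7 other genes the 95% intervals included 0 and reached at most 0.30, for Tbr1. Leaving out dominant male 1 changed the sign of Tbr1 (0.05 with and -0.03 without it) and Bcl11b (0.03 and -0.03), so the positive differences of both in males rested on that library. With the cerebellar score as a covariate, 2 of the 8 differences were positive, those of Fezf2 (0.11) and Rprm (0.01).

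Cage by cage, no gene of the 8 went one way in the males. The dominant male was higher in 5 of 7 cages for Fezf2, in 4 for Rorb, Tbr1 and Bcl11b, and in 3 for Cux2, Foxp2, Rprm and Lamp5. In cage 1, which holds dominant male 1, the within-cage log2 difference was 0.53 for Rprm, 0.49 for Cux2, 0.49 for Fezf2, 0.38 for Tbr1 and 0.34 for Bcl11b. In cage 4 Tbr1 (-0.56), Cux2 (-0.44) and Bcl11b (-0.26) were lower in the dominant male. With the replicate block, which pairs cage mates, 0 genes were called, and the differences lay between -0.03 for Foxp2 and 0.14 for Fezf2.

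In females 7 of the 8 genes were higher in dominant mice on average, and 0 of 8 passed the test. Over all genes 14 of 14865 (0.0942%) passed edgeR's quasi-likelihood test (Benjamini-Hochberg adjusted). With DESeq2, the tool of the study, 78 of the 5222 genes with an adjusted p were called (1.49%), Rorb among them. In edgeR's test, unadjusted p-values under 0.05 belonged to 3 of the 8 genes, Rorb, Tbr1 and Foxp2, and to 1563 genes in all. The median log2 difference of the 8 was 0.10, beside -0.0020 over all genes tested. It was 0.04 in cages 1 and 2 alone, where 5 genes were called in all, 0.19 in cages 3 and 4 alone, where 120 were called, and 0.06 without dominant female 4, and 0 of the 8 genes were called in each of these fits.

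Rorb came closest to a call. It averaged 87.4 ± 2.65 CPM in dominant females against 76.8 ± 1.88 CPM in submissive females (SD, n = 4 each), a log2 difference of 0.18 with a standard error of 0.0372 and an adjusted p of 0.0697 in edgeR's quasi-likelihood test. It was higher in the dominant female in 4 of 4 cages, by 0.14 to 0.21 on the log2 scale. Over the alternatives its adjusted p ran from 0.0207 with DESeq2 to 0.995 with all 22 samples in one fit. DESeq2 called 78 of the 5222 genes to which it gave an adjusted p (1.49%). In the fit over all 22 samples the difference of Rorb was 0.19, and 0 of 15233 genes were called. Rorb was also called with no expression filter (adjusted p = 0.0259 in edgeR's test, with 0.424% of genes called) and without dominant female 2 (adjusted p = 0.0491, with 0.515% called). The replicate block gave 0.18 and an adjusted p of 0.0536 in edgeR's test, with 36 genes called in all. With each library's trend on exon length removed, the difference was 0.13 (adjusted p = 0.348 in edgeR's test, with 0 of 14865 genes called), and Rorb has the longest exon sequence of the 8 genes, 9453 bases.

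Tbr1 averaged 32.4 ± 4.06 CPM in dominant females against 28.1 ± 0.699 CPM in submissive females (SD, n = 4 each), a log2 difference of 0.20 (standard error 0.0708, adjusted p = 0.292 in edgeR's test). Without dominant female 4 it was 0.11 (adjusted p = 0.545 in the same edgeR test). Foxp2 had a log2 difference of 0.14 (standard error 0.0638, adjusted p = 0.435 in edgeR's test), which was 0.03 in female cages 1 and 2 and 0.27 in cages 3 and 4. The 5 other genes had differences of 0.10 for Bcl11b, 0.09 for Lamp5, 0.08 for Cux2, 0.04 for Fezf2 and -0.02 for Rprm, and the 95% interval of each included 0.

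The ranks of the females did not overlap for 2 of the 8 genes, Rorb and Tbr1, and dominant females were all higher for 3.38% of the genes tested. The dominant female was higher in 4 of 4 cages for 3 of the 8 genes, Cux2, Rorb and Tbr1, and this held for 9.55% of the genes tested. The smallest of these within-cage differences were 0.01 for Cux2 and 0.0020 for Tbr1. Of all genes tested, 49.1% were higher on average in dominant females. Of 11 pallial excitatory neuron genes 9 were higher in dominant females, 6 with an unadjusted p under 0.05, of 12 further upper layer genes 10 were higher and of 16 further deep layer genes 10, with 1 in each at an unadjusted p under 0.05. In the striatal list 9 of 10 genes were higher, in the thalamic list 6 of 7, in the hippocampal list 6 of 7, in the non-neuronal list 11 of 15, and in the interneuron list 5 of 10. Of the pan-neuronal genes 4 of 8 were higher, of the granule cell genes 1 of 10 and of the Purkinje cell genes 7 of 11. None of the 11 lists had a gene that passed the test for rank in either sex.

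The rank effect was not shown to differ between the sexes. For the interaction of rank and sex, 0 of 15233 genes (0%) passed edgeR's quasi-likelihood test (Benjamini-Hochberg adjusted), 505 genes but 0 of the 8 had an unadjusted p under 0.05, and DESeq2 called 0 genes with 480 at an unadjusted p under 0.05. The largest differences between the effects, female minus male, were 0.18 for Foxp2 (standard error 0.118), 0.16 for Rorb (standard error 0.0893) and 0.16 for Tbr1 (standard error 0.175), each with an adjusted p of 0.999 in edgeR's test. With the replicate block 0 genes were called.

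**Figure D3:**
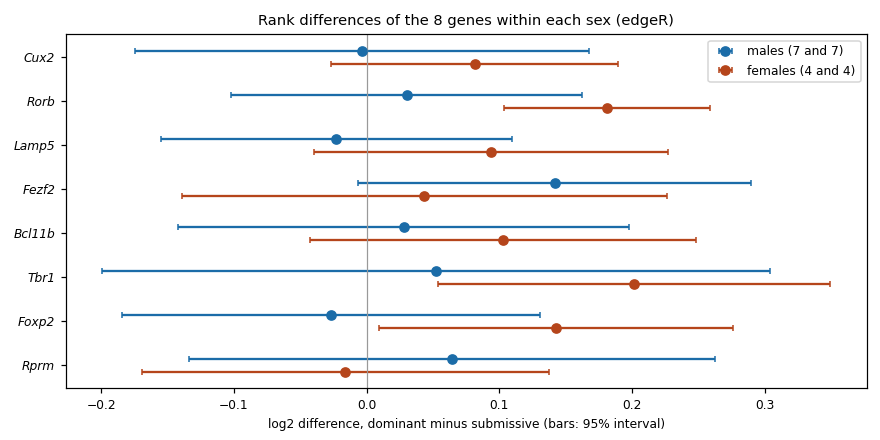
Log2 difference of dominant minus submissive mice (x axis) for the 8 genes in males (blue) and females (red), with 95% intervals as bars. In males all intervals include 0, and in females those of Rorb, Tbr1 and Foxp2 do not, although none of the 3 passed adjustment over all genes.

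Between the tables, Cux2 was lower and Rorb and Rprm were higher in males than in females. Of 15233 genes 5512 (36.2%) passed edgeR's quasi-likelihood test (Benjamini-Hochberg adjusted), and 3 of the 8 genes did, so the share among the 8 is near that of all genes. Sex and table cannot be told apart in these differences.

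Cux2 fell in the male table, with 33.1 ± 3.89 CPM in males (SD, n = 14) and 46.1 ± 2.86 CPM in females (SD, n = 8). Its log2 difference, male minus female, was -0.47 (standard error 0.0580, adjusted p = 5.48e-07 in edgeR's test). All males lay below all females for Cux2 and for 4% of the genes tested, and for 0 of the 8 genes did all males lie above all females, as 2.07% of genes did. Rprm went the other way, with 25.8 ± 3.51 CPM in males (SD, n = 14) and 20.9 ± 1.596 CPM in females (SD, n = 8), a log2 difference of 0.31 (standard error 0.0728, adjusted p = 0.00159 in edgeR's test).

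Rorb differed by 0.15 (standard error 0.0448, adjusted p = 0.0102 in edgeR's test), and Bcl11b by 0.14 (adjusted p = 0.101), Foxp2 by 0.11 (adjusted p = 0.135), Tbr1 by -0.11 (adjusted p = 0.353), Fezf2 by -0.04 (adjusted p = 0.606) and Lamp5 by -0.01 (adjusted p = 0.937). After removal of each library's trend on exon length, 34.9% of genes and 2 of the 8 were called, Cux2 (-0.52) and Rprm (0.34), while Rorb was at 0.0021 (adjusted p = 0.970 in edgeR's test) and Bcl11b at 0.03. Dominant male 6, the library with the lowest Rorb, Bcl11b, Foxp2 and Tbr1, bore on the count. Without it Bcl11b (0.18) and Foxp2 (0.15) were called too, 5 of 8, with 37.9% of all genes.

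Layer genes outside the 8 were called in both directions. Of 12 upper layer genes, Cux1, Rasgrf2 and Otof rose in the male table, and Mdga1, Pou3f2, Pou3f3, Whrn and Rspo1 fell. Of 16 deep layer genes, Etv1, Tle4 and Deptor rose, and Bcl6, Nr4a2 and Cplx3 fell. Among the pallial excitatory neuron genes 2 rose (Camk2a and Slc30a3) and 4 fell (Neurod2, Neurod6, Emx2 and Nrgn). Of the other lists, 1 hippocampal gene rose, 1 striatal gene rose and 3 fell, 3 interneuron genes rose and 1 fell, 2 thalamic genes fell, 4 granule cell genes and 2 Purkinje cell genes fell, 2 pan-neuronal genes rose and 2 fell, and 3 non-neuronal genes rose and 1 fell. Without dominant male 1, which has little cerebellar RNA, 1 granule cell gene rose and 5 fell, 1 Purkinje cell gene rose and 4 fell, 3 interneuron genes rose and 2 fell, 3 pan-neuronal genes rose and 2 fell, and 5 non-neuronal genes rose and 2 fell. Of the 8 genes Rorb, Rprm and Cux2 were again called without it (35.5% of all genes), and of the layer and pallial lists the same genes were, with Lhx2 as a further upper layer gene that fell. Both layer groups and the pallial list thus held genes on either side.

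**Figure D4:**
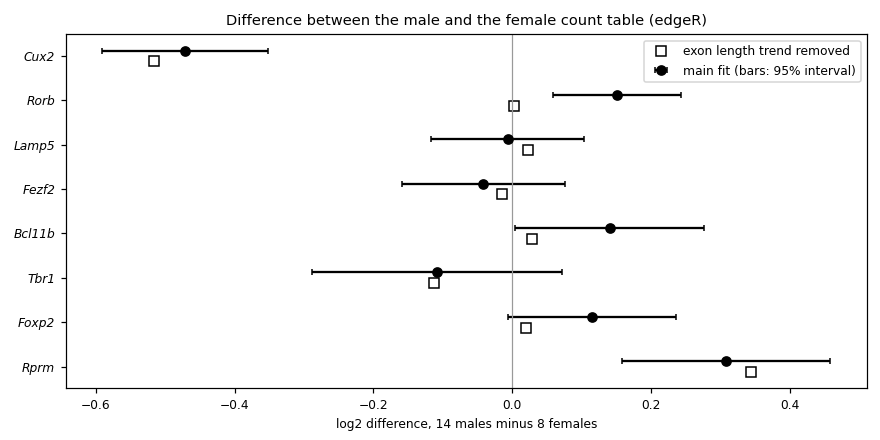
Log2 difference between the 14 males and the 8 females (x axis) for the 8 genes, with 95% intervals of the fit as bars and the values after removal of the exon length trend as open squares. Cux2 (-0.47 and -0.52) and Rprm (0.31 and 0.34) kept their differences, and Rorb went from 0.15 to 0.0021.

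Whether cage mates share a level was tested with the cage terms of both sexes. In males 868 of 14737 genes (5.89%) differed between cages in edgeR's quasi-likelihood test (Benjamini-Hochberg adjusted), and 0 of the 8 did. The smallest adjusted p-values were 0.0829 for Foxp2 and 0.162 for Rorb, both from edgeR's test. Foxp2 averaged 50.3, 45.5, 43.4, 50.3, 40.8, 39.1 and 43.9 CPM in cages 1 to 7, and Rorb ran from 99.2 CPM in cage 1 to 79.3 CPM in cage 6.

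Rprm was even across 3 cages and uneven across 4. Both mice of cages 5 to 7 had 26.9 to 28.7 CPM, with cage means of 27.8, 28.0 and 27.5 CPM, whereas the mice of cages 1 to 4 spread from 19.3 to 31.6 CPM. Without dominant male 1, whose Rprm was 31.6 CPM beside 21.9 CPM in its cage mate, Rprm was called (adjusted p = 0.0282 in edgeR's test), as were 12% of all genes. Lamp5 averaged 106 CPM in cage 5 and 83.7 to 94.3 CPM in the other male cages (adjusted p = 0.232 in edgeR's test). For Tbr1, the SD of the cage means was 0.17 and the pooled SD of cage mates 0.27, both in log2 CPM.

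In females 11 of 14865 genes (0.074%) and 0 of the 8 were called for cage. Lamp5 had the smallest unadjusted p of the 8 and an adjusted p of 0.535 in edgeR's test, with means of 82.6, 96.3, 90.4 and 101 CPM in cages 1 to 4. Bcl11b was called without dominant female 2 (adjusted p = 0.0460 in edgeR's test, with 0.616% of genes called) or without submissive female 2 (adjusted p = 0.0103, with 0.294% called), both from cage 2. Its cage means were 83.8, 72.6, 69.3 and 76.5 CPM in the same order.

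**Figure D5:**
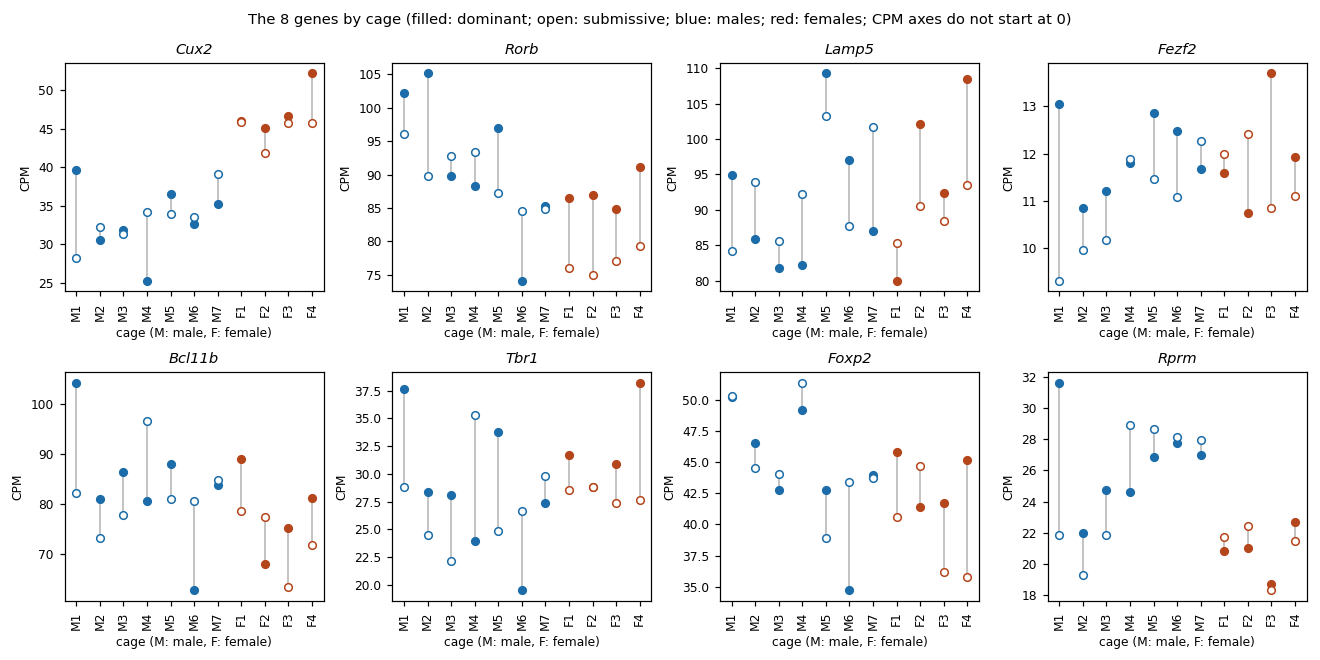
CPM of the 8 genes (y axes not starting at 0) in both mice of each cage (x axis, M for male and F for female cages), dominant as filled and submissive as open circles, males in blue and females in red. In male cage 1 the dominant mouse lies well above its cage mate for Cux2, Fezf2, Bcl11b, Tbr1 and Rprm, and Rprm lies between 26.9 and 28.7 CPM in all 6 males of cages 5 to 7.

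Most pairs of the 8 genes varied in the same direction over the hemispheres. Over the 14 males, log2 CPM of 21 of the 28 pairs had a positive Pearson r (median 0.42), and over the 13 males without dominant male 1 it was 19 of 28 (median 0.24). As a description, with no test and with library and depth shared by both genes, Tbr1 and Bcl11b were closest (r = 0.92 over 14 males and 0.89 over 13), followed by Fezf2 and Rprm (r = 0.82 and 0.78). Foxp2 and Lamp5 ran opposite in males (r = -0.41 over 14 and -0.47 over 13). In the 8 females 25 of 28 pairs were positive (median 0.40), and Tbr1 and Bcl11b had r = 0.60. Outside the 8, the genes most like their mean standardised log2 CPM were Rnft2, Phactr1, Snph, Enc1 and Smpd3 over the 14 males (r = 0.94 to 0.96) and Plxna2, Wipf3, Ap3b1, Cdk5r2 and Prickle2 over the 8 females (r = 0.96 to 0.99). Without dominant male 1, Rnft2, Phactr1 and Smpd3 were again among the 5 nearest, with Ptk2b and Tmem151a. No gene was among the 5 nearest in both sexes.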

How the data were processed

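Total RNA libraries of 22 right hemispheres were analysed. The authors removed ribosomal RNA, made stranded libraries and sequenced single reads of 85 bases. Per the study's methods and processing notes, trimming used cutadapt 1.15 and bbduk, alignment to mm10 used STAR 2.6.0a, and featureCounts 1.6.2 assigned reads to the genes of an iGenomes annotation. The deposited values are raw counts per gene. The strand setting of the counting and how it handled multi-mapping reads are not given in the sources used here. Exon lengths and coordinates are those of the tables, and overlaps on either strand were checked against the other genes of the same tables.

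TMM factors scaled the counts, and the tests were those of edgeR 4.0.16 (R 4.3.3; glmQLFit and glmQLFTest), after filterByExpr (min.count 10, min.total.count 15). P-values were adjusted over all genes tested (Benjamini-Hochberg, threshold 0.05). The fits modelled rank within each sex, 4 group means over all samples for the interaction and the difference between tables, cage terms beside rank, or the cerebellar score beside rank. Log2 CPM used a prior count of 2. Intervals cover 95% and come from the fit's standard error. Each standard error is the log2 difference divided by the root of the F value. Nothing but the cage ties a sample to a litter or day. The p-values measure the spread between these mice, and with a single library per mouse that spread includes dissection and library preparation. The main rank fits did not pair cage mates. All 54 pairs of libraries within groups differed by more than sampling noise.

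Replicate numbers pair the samples, because they stand for cages in the library names. Across genes, the deviations of male cage mates correlated at 0.177 on average (-0.0293 for other pairs), and those of female cage mates at 0.0239 (-0.00798). The alternatives were DESeq2 1.42.0, its size factors in edgeR, no expression filter, the replicate block, removal of a loess trend on exon length (span 0.3) alone or beside the block, one fit over all 22 samples, the cerebellar score as a covariate, subsets of cages, a Purkinje cell score, no rank term, other scalings of dominant male 1, and leaving out samples. Fits of the difference between tables with males of cages 1 to 4 or 5 to 7 only were added after seeing the data. The male score fit with cages 5 to 7 only was also added then, and none was run with cages 1 to 4 only. Tested on simulated counts were the edgeR fits of rank (with and without the replicate block), cage, cerebellar score and difference between tables. The interaction and the other alternatives were not.

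Members and lists were chosen with earlier results of these data known. Named were the 8 genes, the most abundant or called genes of 11 lists (upper layer, deep layer, pallial excitatory, hippocampal, striatal, interneuron, thalamic, granule cell, Purkinje cell, pan-neuronal and non-neuronal), by name for the layer lists and otherwise mostly by count, and the 5 genes most like the members. Depth was 12403943 to 16488762 counted reads, where a count of 0 allows up to 3 counts (counting error only).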

Additional observations from a re-analysis of the deposited data

Results flagged for a closer look

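The 8 genes and their sum were searched in each of the 4 groups of 7 males or 4 females for a sample far from the others of its group, 36 searches in all. Chance gives such a gap in about 1 in 20 searches, so the 2 cases found, both in females, are about as many as chance gives. Cux2 in submissive female 2 was 41.77 CPM, while the other 3 submissive females lay between 45.67 and 45.84 CPM. The summed level of the 8 genes in dominant female 4 was 450.9 CPM, and the next dominant female had 411.6 CPM. Dominant female 4 also had the lowest cerebellar score of the females, -0.41 from the female mean, and submissive female 2 the second lowest, -0.29. Their part in these values was not tested.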

How the results depend on the processing

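The number of the 8 genes called was 0 for rank in males and for the interaction under every alternative run. For rank in females it was 1 (Rorb) with DESeq2 and with no expression filter, and 0 to 1 over the fits without 1 sample. For the difference between tables it was 2 (Cux2 and Rprm) with the exon length trend removed (34.9% of all genes). It was 3 to 5 without 1 sample and 5 with only the males of cages 1 to 4 (46.1% of all genes). For cage it was 1 in males without dominant male 1 (Rprm), and in females 1 with no expression filter (Lamp5, 0.499% of all genes) and 0 to 1 without 1 sample. For the cerebellar score in males it was 3 with only cages 5 to 7 (Rorb, Tbr1 and Bcl11b, 6 mice, 1.67% of all genes). In dominant male 1, 2 genes in place of 5 were above all other males relative to the pallial excitatory neuron genes, as were 1.58% in place of 10.9% of all genes. The cause of these changes was not tested, except that fewer samples or other genes tested are part of some alternatives. The replicate block changed no call of the 8 genes, while the count over all genes for rank in females went from 14 to 36. That count was 0 with the exon length trend removed and with all 22 samples in one fit.

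Single genes changed sign where the main difference was small and not called. For rank in males, removal of the exon length trend put Cux2 at 0.013 (0.0093 with the replicate block as well), and only cages 1 to 4 put it at 0.023. With the cerebellar score as a covariate Rorb was at -0.0022, Tbr1 at -0.054 and Bcl11b at -0.045. With only cages 5 to 7 Rorb was at -0.0045, Tbr1 at -0.015, Bcl11b at -0.072, Rprm at -0.058 and Lamp5 at 3.2e-05. Without 1 sample Cux2 ranged from -0.051 to 0.049, Rorb from -0.0056 to 0.077, Tbr1 from -0.028 to 0.13, Bcl11b from -0.032 to 0.089, Foxp2 from -0.060 to 0.025 and Lamp5 from -0.070 to 0.0048. For rank in females, Fezf2 was at -0.13 with only female cages 1 and 2, and Rprm at 0.016 with the exon length trend removed, 0.017 with the replicate block as well and 0.052 with only cages 3 and 4. Without 1 sample Fezf2 ranged from -0.026 to 0.095 and Rprm from -0.074 to 0.030.

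For the difference between tables, Lamp5 was at 0.022 with the exon length trend removed, and with only the males of cages 5 to 7 Fezf2 was at 0.023, Foxp2 at -0.0025 and Lamp5 at 0.078. Without 1 sample Fezf2 ranged from -0.059 to 0.0038 and Lamp5 from -0.035 to 0.036. For the score, Rprm was at 0.044 in males of cages 5 to 7, Cux2 at 0.029 in females with the Purkinje cell score, and without 1 female Cux2 ranged from -0.31 to 0.17, Rorb from -0.14 to 0.058 and Lamp5 from -0.35 to 0.059. The 1 hemisphere with little cerebellar RNA cannot stand for a condition.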
